A study of Mus musculus with 4 samples.

Results

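The clustered histone genes are described here in mammospheres of mice exposed to bisphenol A (BPA), to 7,12-dimethylbenz[a]anthracene (DMBA), to both or to neither. Members were all genes whose symbol places them in one of the mouse histone clusters Hist1 to Hist4, which gave 68 of the 22609 genes counted. Of these, 11 reached at least 20 counts in any library and are described one by one, and 57 stayed under 20 counts in every library. The Hist1 cluster held 54 members, Hist2 held 10, Hist3 held 3 and Hist4 held 1. In the GRCm38 annotation these clusters lie on chromosomes 13, 3, 11 and 6, and 67 members matched a single RefSeq gene.

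Clustered histone genes encode the linker histone H1 and the core histones H2A, H2B, H3 and H4 that package new DNA. Most are transcribed in S phase, and their mRNAs end in a stem-loop that the protein SLBP binds, in place of a poly(A) tail. Some members are also made as polyadenylated mRNAs with longer 3′ ends in cells that leave the cell cycle or differentiate, and a protocol that selects poly(A) RNA sees mainly those.

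All 4 groups were Balb/C mice, 4 months old at collection and fed a diet low in phytoestrogens. The BPA+DMBA group had received 25 µg BPA per kg body weight each day, an estrogenic plastics monomer, by gavage over 3 weeks starting on day 21, then 1 gavage of 30 mg/kg DMBA, a carcinogen, when 2 months old. The DMBA group had received sesame oil in place of BPA and the same DMBA dose, the BPA group BPA without DMBA, and the control group sesame oil alone. Basal mammary cells were sorted by FACS and grown for 7 days as mammospheres, which are floating colonies, and RNA of spheres from 5 animals was pooled into 1 library a group. There were thus no replicates. Pair ratios compare 2 libraries, not 2 conditions, and their 95% Clopper-Pearson intervals cover counting error only. The p-values come from an additive edgeR model of BPA and DMBA whose spread rests on 1 residual degree of freedom. That degree of freedom is the interaction of BPA and DMBA, which stands in for replicates. The spread thus reflects departure from additivity and does not measure variation between animals or libraries of a group.

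Gene counts totalled 15672532 in BPA+DMBA, 26682738 in DMBA, 19672730 in BPA and 30627055 in control, so both BPA-exposed libraries were the shallower of their pairs. Levels are given as CPM, counts scaled to library size, after TMM scaling. Scaling by total counts alone would shift the median log2 ratio of all genes by 0.11 in DMBA against control. Basal markers were present in every library, with a summed level of 2327 CPM in BPA+DMBA, 2868 in DMBA, 957 in BPA and 844 in control. Luminal markers summed to 2136, 2059, 2704 and 2421 CPM in that order of groups. Their sum was thus above the basal sum in BPA and control, although the cells were sorted as basal. Fibroblast markers were also present, at 8867, 5312, 6438 and 8652 CPM in that order of groups. Of the immune markers, Ptprc, which all leukocytes express, had 1 to 3 counts a library, while the myeloid gene Lyz2 had 44 counts in BPA+DMBA, 31 in DMBA, 7 in BPA and 8 in control. The erythroid markers summed to 0.881 CPM in BPA+DMBA, 0.861 in DMBA, 0.470 in BPA and 0.573 in control, with the haemoglobin genes Hbb-b1 and Hba-a1 at 0.

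The stem-loop of the mRNA was compared between members, along with the annotated sequence after it. It was searched as GGNNCT, any 4 bases and AGNNCC, with the first 6 bases complementary to the last 6 in reverse, on the sense strand of GENCODE M21 transcripts. The longest transcript of 45 of the 68 members held it, against 437 of 141767 transcripts (0.308%) overall. In the stretches shown, capitals mark the stem-loop. The first 4 belong to the members with the most counts in the H1, H2A, H3 and H4 classes, and the last 2 to members under 20 counts.
Hist1h1c: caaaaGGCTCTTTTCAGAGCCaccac
Hist3h2a: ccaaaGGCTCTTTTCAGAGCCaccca
Hist2h3c1: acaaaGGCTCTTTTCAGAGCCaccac
Hist1h4i: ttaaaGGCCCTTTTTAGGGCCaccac
Hist1h2ab: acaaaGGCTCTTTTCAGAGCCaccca
Hist1h4h: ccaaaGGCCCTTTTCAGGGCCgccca

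The form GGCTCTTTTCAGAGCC was found in 25 of the 45 members, of the H1, H2A, H2B and H3 classes. The H4 members differed: 7 carried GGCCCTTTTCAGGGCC, and none carried the commonest form. The search itself fixed most bases of the stem-loop, so its likeness between members with many and few counts is largely set by the pattern. The annotated sequence after it was not part of the pattern, and its length differed between these members. Among the 8 members with at least 20 counts that held it, 155 to 4884 annotated bases followed it, with a median of 996.5. Among the 37 members under 20 counts that held it, 3 to 2445 bases followed, with a median of 47. Hist1h1c had 840 bases after it, Hist3h2a 1643, Hist2h3c1 1167 and Hist1h4i 330, against 11 for Hist1h2ab and 46 for Hist1h4h. Whether the libraries were selected for poly(A) RNA is not given in the labels. Overlap was wide: Hist1h2ac, with at most 17 counts in a library, had 2010 bases after it. The longest transcripts of Hist1h2bc, Hist2h2be and Hist2h2bb, all above the count minimum, held no stem-loop of this form. The search cannot see a stem-loop beyond the annotated end of a transcript, so absence here is not lack of the stem-loop in the gene. The transcript of Hist2h2bb is 381 bases long, against 493 in its RefSeq gene.

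**Figure D1:**
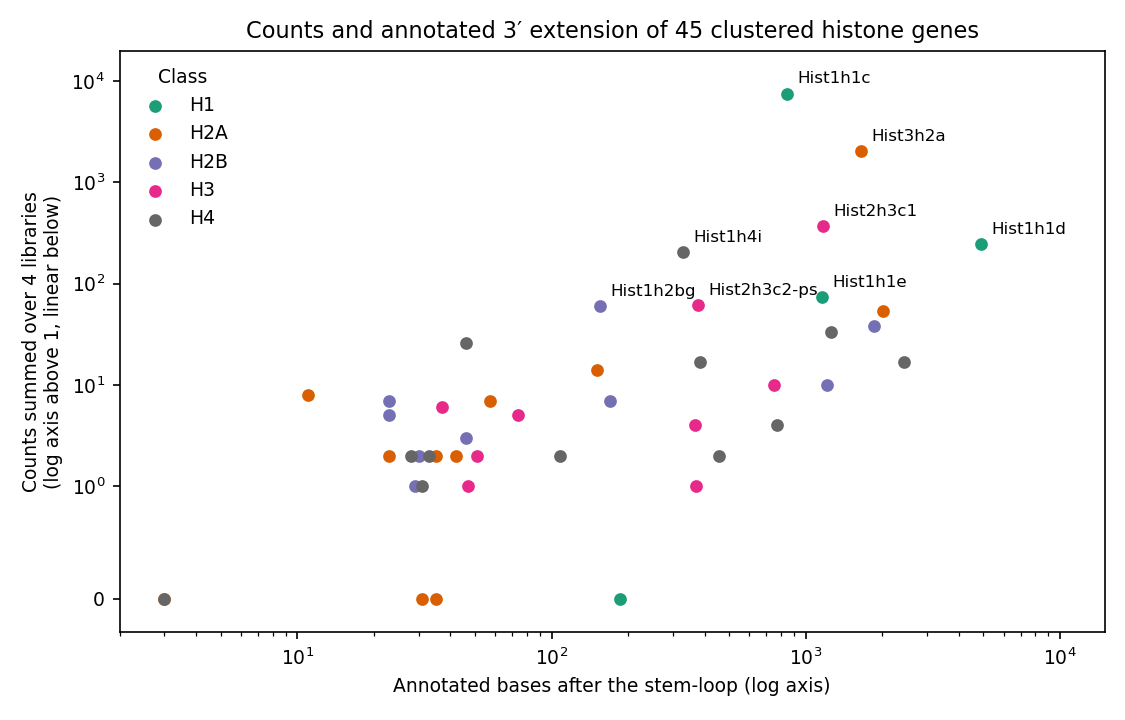
Counts summed over the 4 libraries (log axis above 1, linear below) against the annotated bases after the stem-loop (log axis), 1 point for each of the 45 clustered histone genes whose longest transcript holds it, coloured by class. The named members are those with at least 20 counts in any library; 155 to 4884 bases follow the stem-loop in them.

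Transcript length moved with the counts as well, with a median of 1560 bases in the members above the count minimum and 520 in the rest. So did uniqueness of sequence. The median share of 50-base words found in no gene elsewhere was 91.5% in the members above the minimum, 47.7% in those under it and 11.5% in the 11 members at 0 counts in every library. Reads that aligned to more than 1 place were 25.3% of all deposited counts in BPA+DMBA, 25.6% in DMBA, 23.3% in BPA and 22.9% in control and were assigned to no gene. Which of these features goes with low counts by itself was not tested. The annotation that the authors counted on is not given in the sources used here, and annotations differ: the RefSeq gene of Hist1h1c spans 725 bases, against 1560 in its longest GENCODE transcript.

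Upstream sequence was available for 61 members from RefSeq (GRCm38.p6), as the 250 bases before the gene start. The motif CCAAT, on either strand, was in 50 of the 61 (82.0%), against 34.5% of 27025 promoters of the same length. It was in all 6 H1, 17 H2A and 16 H2B promoters and in 8 of 10 H3 promoters. Of the H4 promoters only 3 of 12 (25%) held it. TATAAA was in 29 of the 61 (47.5%), against 13.0%. The octamer ATTTGCAT, bound by POU factors, was in 7 of 17 H2A and 6 of 16 H2B promoters and in none of the H1, H3 and H4 promoters, against 1.61% overall. AAACACA, known as an H1 box, was in 5 of 6 H1 promoters, against 6.22% overall. These matches are descriptions of sequence, not of binding. The upstream sequences of Hist1h1c (chr13:23738557-23738806, plus strand) and Hist2h2bb (chr3:96269450-96269699, plus strand) are shown because Hist1h1c had the most counts and Hist2h2bb the lowest BPA ratios. Capitals mark AAACACA and CCAAT in Hist1h1c, and ATTTGCAT and CCAAT (or its reverse complement) in Hist2h2bb.
Hist1h1c: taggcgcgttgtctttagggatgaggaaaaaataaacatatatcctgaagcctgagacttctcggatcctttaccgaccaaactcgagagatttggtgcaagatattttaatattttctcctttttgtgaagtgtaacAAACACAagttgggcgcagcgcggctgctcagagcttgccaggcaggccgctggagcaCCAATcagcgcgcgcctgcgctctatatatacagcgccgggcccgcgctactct
Hist2h2bb: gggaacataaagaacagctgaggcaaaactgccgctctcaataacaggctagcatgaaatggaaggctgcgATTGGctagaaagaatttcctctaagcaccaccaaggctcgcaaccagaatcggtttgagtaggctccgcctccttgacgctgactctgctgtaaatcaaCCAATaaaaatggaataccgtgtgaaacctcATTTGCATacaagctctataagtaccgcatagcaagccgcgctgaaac

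The 68 members together took 0.0136% of gene counts in BPA+DMBA, 0.0160% in DMBA, 0.0118% in BPA and 0.0146% in control. Their summed level was 134 CPM in BPA+DMBA, 153 in DMBA, 121 in BPA and 151 in control, so both BPA-exposed libraries were low. A single linker histone gene dominated the sum. H1 genes held 59.7% of all member counts, H2B genes 18.1%, H2A genes 16.3%, H3 genes 3.52% and H4 genes 2.41%. Hist1h1c, Hist3h2a and Hist1h2bc together held 86.4%. In bulk RNA, fewer cells that express a gene and less of its RNA per cell cannot be told apart.

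**Figure D2:**
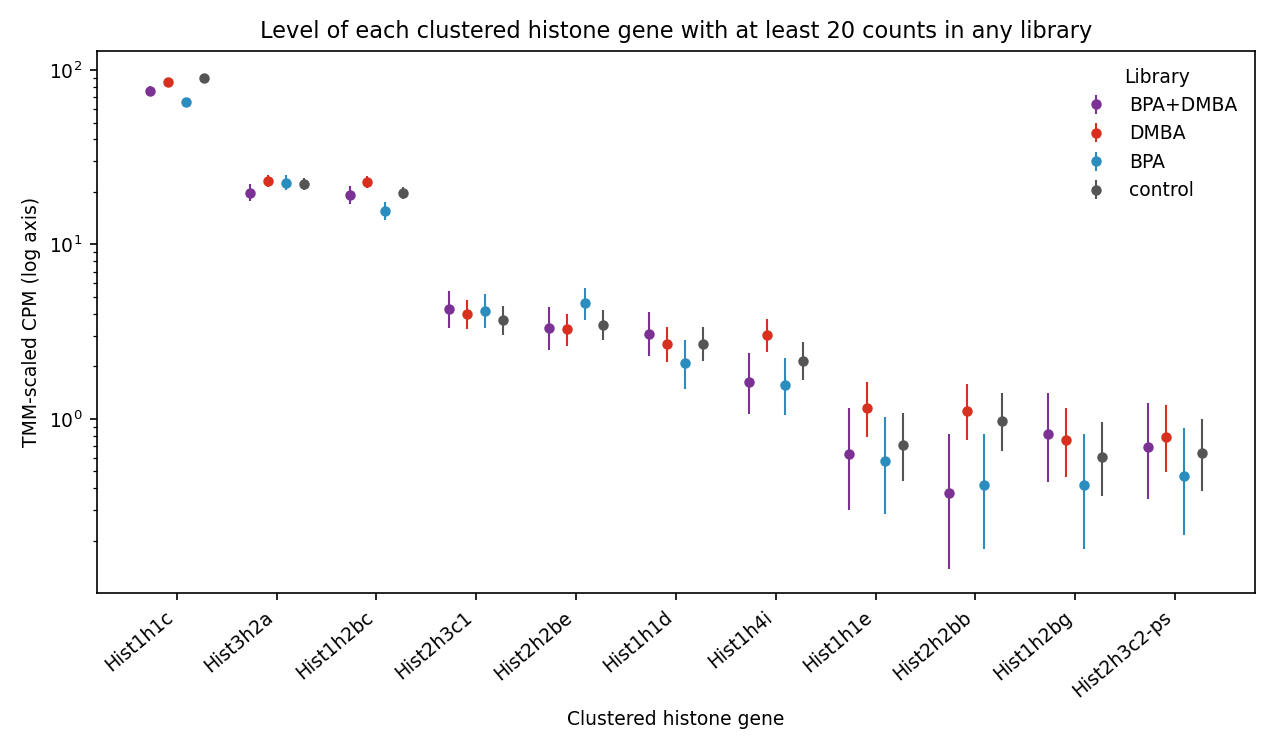
TMM-scaled CPM (log axis) of the 11 members with at least 20 counts in any library, ordered by mean CPM over the 4 libraries. Each library (BPA+DMBA, DMBA, BPA, control) has 1 point with an exact Poisson 95% interval, which covers counting error only. Hist1h1c sits between 65.6 and 89.7 CPM in the 4 libraries, above every other member.

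Among linker histones, which bind the nucleosome at its entry and exit of DNA, Hist1h1c (histone H1.2) was the most abundant. It had 76.2 CPM in BPA+DMBA, 85.5 in DMBA, 65.6 in BPA and 89.7 in control, on 1210, 2384, 1256 and 2660 counts. The BPA library was the lowest and the control library the highest, and each BPA-exposed library lay below its partner without BPA. Hist1h1d (H1.3) had 3.08 CPM in BPA+DMBA, 2.69 in DMBA, 2.09 in BPA and 2.70 in control, with BPA lowest. Hist1h1e (H1.4) had 0.630 CPM in BPA+DMBA, 1.15 in DMBA, 0.575 in BPA and 0.708 in control, on 10 to 32 counts. The other 3 H1 members stayed under the minimum, and the testis H1 gene Hist1h1t had 0 counts in every library.

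Hist3h2a, which encodes a core histone H2A, was the only one of 18 H2A members to reach 20 counts. It had 19.8 CPM in BPA+DMBA, 23.1 in DMBA, 22.6 in BPA and 22.1 in control. The BPA+DMBA library was low and the other 3 were close to each other. Hist1h2ac was the H2A member just under the minimum, with 14 counts in BPA+DMBA, 15 in DMBA, 8 in BPA and 17 in control.

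Of 19 H2B members, 4 reached the minimum. Hist1h2bc had 19.3 CPM in BPA+DMBA, 22.8 in DMBA, 15.6 in BPA and 19.7 in control, with BPA lowest and DMBA highest. Hist2h2be had 3.34 CPM in BPA+DMBA, 3.26 in DMBA, 4.60 in BPA and 3.47 in control, and was highest in BPA. These H2B genes therefore placed the BPA library at opposite ends of their order. Hist2h2bb had 0.378 CPM in BPA+DMBA, 1.11 in DMBA, 0.418 in BPA and 0.978 in control, on 6, 31, 8 and 29 counts, so both BPA-exposed libraries were low. Hist1h2bg had 0.818 CPM in BPA+DMBA, 0.753 in DMBA, 0.418 in BPA and 0.607 in control, on 8 to 21 counts.

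Of 12 H3 members, Hist2h3c1 had 4.28 CPM in BPA+DMBA, 3.98 in DMBA, 4.18 in BPA and 3.71 in control, with little spread between libraries. Hist2h3c2-ps had 0.693 CPM in BPA+DMBA, 0.789 in DMBA, 0.470 in BPA and 0.640 in control. Only 65.3% of the 50-base words of Hist2h3c1 and 36.5% of those of Hist2h3c2-ps were unique to the gene, so counts between these near copies are uncertain. The share was also limited for Hist1h2bg (50.3%), Hist1h2bc (69.4%) and Hist1h4i (71.1%), whose counts carry the same doubt. In the remaining members above the minimum it was at least 91.5%. Of 13 H4 members, Hist1h4i was the one above the minimum, with 1.64 CPM in BPA+DMBA, 3.01 in DMBA, 1.57 in BPA and 2.16 in control. Both BPA-exposed libraries were low, and DMBA was high.

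Per kilobase of longest GENCODE transcript, the level of Hist1h1c was 48.8 CPM in BPA+DMBA, 54.8 in DMBA, 42.1 in BPA and 57.5 in control. On that scale Hist1h2bc lay between 13.5 and 19.7, Hist3h2a between 9.24 and 10.8 and Hist1h4i between 2.16 and 4.15. This order can depend on the annotation, since the RefSeq gene of Hist3h2a spans 508 bases, against 2146 bases in its GENCODE transcript. The RefSeq gene of Hist1h2bc spans 8282 bases. A gene span can include introns, so it is not comparable with the 1156 bases of the Hist1h2bc transcript. H3f3b, a gene outside the clusters that encodes the replacement histone H3.3 and makes polyadenylated mRNA, was higher still, at 137 CPM per kilobase in BPA+DMBA, 152 in DMBA, 128 in BPA and 141 in control. H2afz, which encodes H2A.Z, had 5.95, 9.60, 6.50 and 6.56 in that order of groups.

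The 57 members under the minimum summed to 3.65 CPM in BPA+DMBA, 4.66 in DMBA, 2.87 in BPA and 4.18 in control, on 58, 130, 55 and 124 counts. Of these, 46 had at least 1 count and 11 had 0 in every library. Just under the minimum beside Hist1h2ac lay Hist1h2be (at most 15 counts) and Hist1h4h (at most 13), and just inside it lay Hist1h2bg (at most 21) and Hist2h3c2-ps (at most 22).

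BPA exposure was read in BPA against control and in BPA+DMBA against DMBA, pairs that share no library. No member passed the additive edgeR test for BPA (0 of 11 at an adjusted p under 0.05, against 0% of all 13638 genes tested), and DESeq2 also called 0 members. At an unadjusted p under 0.05 the edgeR test held 3 of 11 members, all with lower values with BPA, against 2.23% of all genes in either direction and 1.03% on the lower side. These were Hist1h1c (log2 change -0.31, SE 0.0900, unadjusted p = 0.0122 and adjusted p = 0.999 by edgeR), Hist1h2bc (-0.29, SE 0.109, unadjusted p = 0.0354 and adjusted p = 0.999 by edgeR) and Hist2h2bb (-1.37, SE 0.446, unadjusted p = 0.0198 and adjusted p = 0.999 by edgeR). The median log2 change of the 11 members was -0.29, with 9 below 0 and 2 above, beside a median of 0.00 over all genes. By pair, 8 were below 0 and 3 above in BPA against control, and 7 below and 4 above in BPA+DMBA against DMBA. Of the 11, 6 (54.5%) were below 0 in both pairs, against 22.7% of all genes: Hist1h1c, Hist1h1e, Hist1h2bc, Hist1h4i, Hist2h2bb and Hist2h3c2-ps. Members reached the minimum in any library, including those where they were high, so these counts describe 11 members and not all 68. Hist1h1e, Hist1h2bg, Hist2h2bb and Hist2h3c2-ps reached it only in libraries without BPA, which were also the deeper of their pairs. For such members the minimum favours values lower with BPA, so the shares set beside those of all genes are descriptions only.

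Hist1h1c was 0.732 times as high in BPA as in control (interval 0.684 to 0.783) and 0.891 times as high in BPA+DMBA as in DMBA (0.830 to 0.955). Hist1h2bc had ratios of 0.794 (0.688 to 0.914) and 0.844 (0.734 to 0.969) in the same pairs. None of these ratios reached a 2-fold difference, and each of the 4 intervals excluded equality. Hist2h2bb had ratios of 0.428 (0.169 to 0.959) and 0.340 (0.116 to 0.826), on 8 counts or fewer in each BPA-exposed library. It reached the count minimum only through DMBA and control, the libraries where it was high. It was the 1 member at least 2-fold lower in BPA against control, where 0.587% of all genes were, and in BPA+DMBA against DMBA, where 0.748% were. By the same rule 0 members were higher in these pairs, where 0.374% and 0.513% of all genes were. After thinning all libraries to the smallest total, 0 members met that rule in either pair, since Hist2h2bb then had under 20 counts in every library.

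Hist1h4i had a ratio of 0.727 (0.455 to 1.14) in BPA against control and 0.543 (0.336 to 0.852) in BPA+DMBA against DMBA, and its interval excluded equality only in the second pair. Hist3h2a had ratios of 1.02 (0.903 to 1.16) and 0.858 (0.748 to 0.984). Hist2h2be was on the other side of 1 in both pairs, at 1.32 (0.985 to 1.78) and 1.02 (0.714 to 1.45), and so was Hist2h3c1, at 1.13 (0.834 to 1.52) and 1.07 (0.783 to 1.47). Counting intervals excluded equality on the lower side for 3 of 11 members in BPA against control, where they did so for 12.8% of all genes, and for 5 of 11 in BPA+DMBA against DMBA, where they did so for 15.1%. They excluded it on the higher side for 0 members in both pairs, where they did so for 16.4% and 17.6% of all genes.

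**Figure D3:**
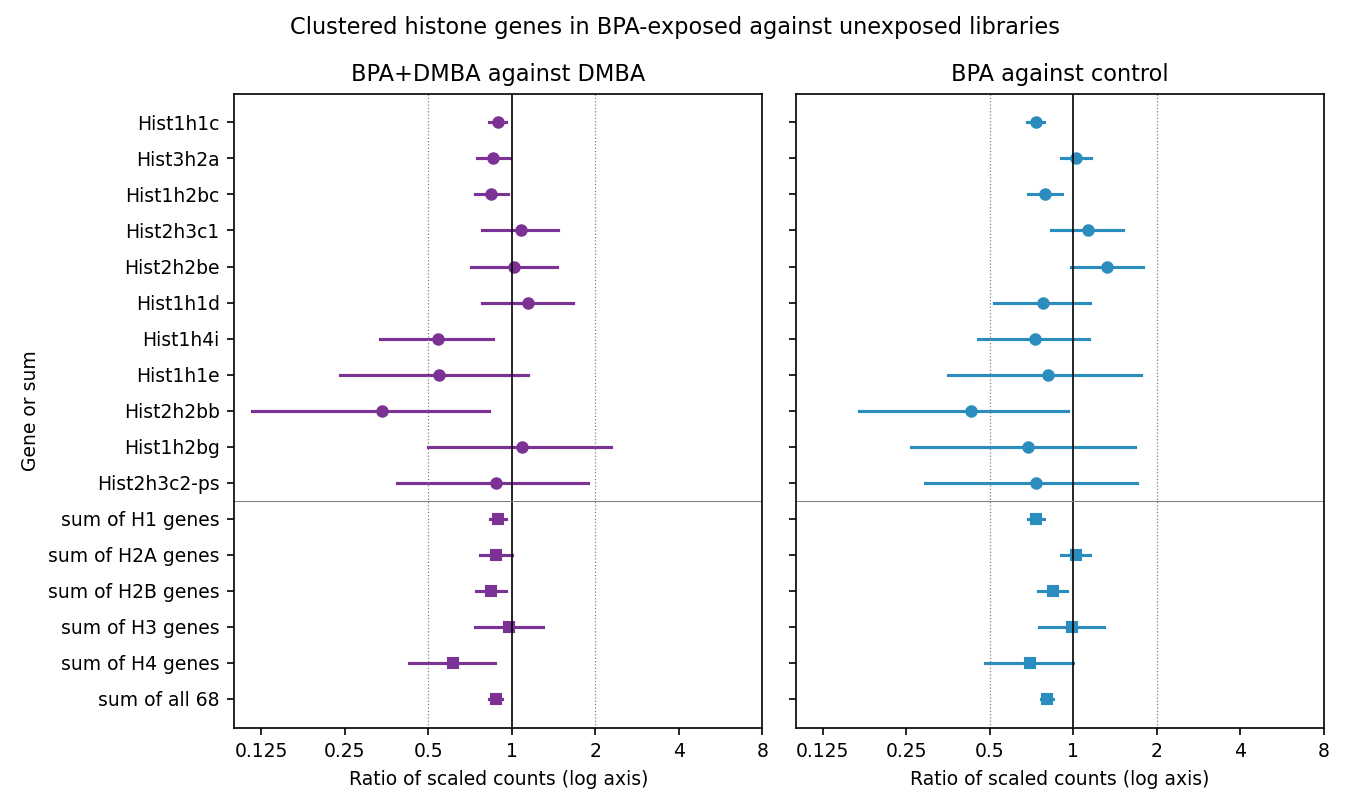
Ratio of TMM-scaled counts (log axis) with 95% counting intervals in BPA+DMBA against DMBA (left) and BPA against control (right), for the 11 members and for sums over each histone class and all 68 members. The sum of all 68 lies below 1 in both panels, at 0.875 and 0.804, and Hist2h2bb lies farthest to the left.

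The sum of all 68 members, which no count minimum selects, was 0.804 times as high in BPA as in control (0.764 to 0.845) and 0.875 times as high in BPA+DMBA as in DMBA (0.830 to 0.922). The H1 sum had ratios of 0.733 (0.686 to 0.783) and 0.894 (0.835 to 0.956) in these pairs, the H2B sum 0.844 (0.747 to 0.952) and 0.841 (0.743 to 0.950), and the H4 sum 0.699 (0.482 to 0.999) and 0.613 (0.424 to 0.870). All 3 class sums were thus lower with BPA in each pair. The H3 sum was 0.986 (0.750 to 1.29) and 0.979 (0.738 to 1.29). The H2A sum was 1.02 (0.904 to 1.15) in the first pair and 0.875 (0.765 to 0.999) in the second. Without Hist1h1c the sum of the others was 0.909 (0.842 to 0.981) in BPA against control and 0.855 (0.790 to 0.926) in BPA+DMBA against DMBA, and the 57 members under the minimum had 0.688 (0.491 to 0.952) and 0.783 (0.564 to 1.07). Without the 3 highest members the sum had ratios of 0.898 (0.781 to 1.03) and 0.864 (0.749 to 0.995) in these pairs. By cluster, the Hist1 sum had 0.739 (0.696 to 0.783) and 0.873 (0.822 to 0.926), the Hist2 sum 1.13 (0.938 to 1.36) and 0.939 (0.762 to 1.15), and the Hist3 sum 1.02 (0.898 to 1.15) and 0.854 (0.744 to 0.979). The lower level in BPA against control was thus seen in the Hist1 sum and not in those of Hist2 and Hist3.

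Other measures moved with these pairs. Both BPA-exposed libraries were shallower, and after thinning to equal totals the log2 ratio of the sum was -0.33 in BPA against control and -0.22 in BPA+DMBA against DMBA, beside -0.32 and -0.19 as deposited. All 8 fibroblast markers were lower in BPA against control and all 8 were higher in BPA+DMBA against DMBA. Basal markers were lower for 5 of 9 and 8 of 9 in these pairs. Luminal markers were higher for 6 of 9 in both, with median log2 ratios of 0.18 and 0.05, and endothelial markers for 6 of 6 and 4 of 6, with medians of 0.62 and 0.03. The part of cell composition in the histone levels was not tested.

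DMBA exposure was read in the DMBA library against control and in BPA+DMBA against its BPA partner. No member passed the additive edgeR test (0 of 11 at an adjusted p under 0.05, against 14.4% of all genes), and 0 of 11 had an unadjusted p under 0.05, against 31.1% of all genes. DESeq2 called 0 members and 675 of all genes, but gave no adjusted p for Hist1h1e, Hist1h2bg, Hist2h2bb and Hist2h3c2-ps, which thus could not pass. The median log2 change of the members was 0.24, with 9 above 0 and 2 below, beside -0.00 over all genes. Of those above 0, Hist1h2bg and Hist2h3c2-ps reached the count minimum only in the DMBA library, so the minimum favours a higher value with DMBA for them. Adjusted p-values in edgeR lay between 0.170, for Hist1h2bc, and 0.898, for Hist2h2bb. In DMBA against control 0 members were at least 2-fold higher, where 4.52% of all genes were, and 0 at least 2-fold lower, where 2.46% were. In BPA+DMBA against BPA both counts were also 0, where 2.93% and 1.05% of all genes were higher and lower by that rule.

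Hist1h2bc had the lowest p among the members, with a log2 change of 0.25 (SE 0.109, edgeR adjusted p = 0.170). Its ratio was 1.16 (1.03 to 1.30) in DMBA against control and 1.23 (1.05 to 1.45) in BPA+DMBA against BPA. Hist1h1c had a log2 change of 0.07 (SE 0.0899, edgeR adjusted p = 0.640), with ratios of 0.954 (0.902 to 1.01) and 1.16 (1.07 to 1.26) that lay on either side of 1. Hist1h2bg had the highest change, 0.56 (SE 0.448, edgeR adjusted p = 0.437), on 8 to 21 counts, and passed the count minimum only through DMBA. Hist2h2be had the lowest, -0.26 (SE 0.232, edgeR adjusted p = 0.486). Hist1h4i was at 0.32 (SE 0.287, edgeR adjusted p = 0.491) and Hist3h2a at -0.06 (SE 0.114, edgeR adjusted p = 0.770), which turned to 0.03 with scaling by total counts. Hist1h1d, Hist1h1e and Hist2h3c2-ps had changes of 0.24, 0.49 and 0.39, and Hist2h3c1 and Hist2h2bb of 0.07 and 0.10. Intervals excluded equality on the higher side for 1 of 11 members in DMBA against control, against 27.9% of all genes, and for 2 of 11 in BPA+DMBA against BPA, against 24%. They did so on the lower side for 0 members, against 31.2% and 25.5%.

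**Figure D4:**
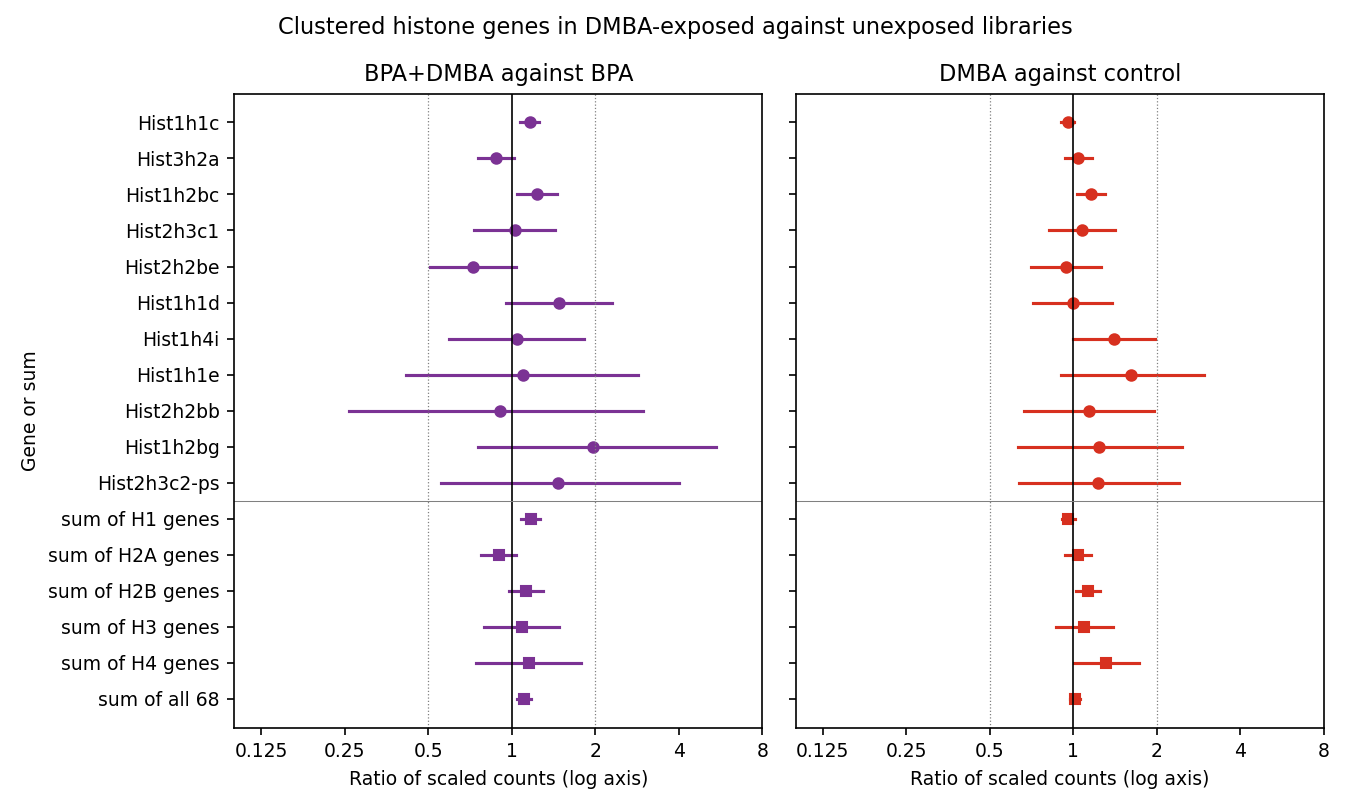
Ratio of TMM-scaled counts (log axis) with 95% counting intervals in BPA+DMBA against BPA (left) and DMBA against control (right), for the 11 members and for sums over each histone class and all 68 members. The sum of all 68 lies at 1.11 and 1.01, and no member lies 2-fold or more from 1.

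The sum of all 68 members was 1.01 times as high in DMBA as in control (0.973 to 1.06) and 1.11 times as high in BPA+DMBA as in BPA (1.04 to 1.17). By class, the H4 sum was 1.31 (1.00 to 1.72) and 1.15 (0.745 to 1.78), the H2B sum 1.13 (1.02 to 1.25) and 1.13 (0.979 to 1.30), and the H1 sum 0.960 (0.909 to 1.01) and 1.17 (1.08 to 1.26). The H2A sum was 1.04 (0.938 to 1.16) and 0.896 (0.775 to 1.03). The H1 and H2A sums thus lay on opposite sides of 1 in the 2 pairs, in opposite orders, and of their intervals only that of H1 in BPA+DMBA against BPA excluded equality. Longer transcripts had lower ratios with DMBA across 13524 genes (Spearman correlation -0.285 for DMBA against control and -0.335 for BPA+DMBA against BPA, across genes, which share their libraries). With that trend removed 0 members passed, and the median log2 change of the 11 members was 0.07, with 6 above 0 and 5 below. Hist1h2bc then had a log2 change of 0.07 (edgeR adjusted p = 0.747), Hist1h4i of 0.07 and Hist1h1c of -0.07. Intervals excluded equality in DMBA against control for 0 members on the higher side and for Hist1h1c on the lower side, at a log2 ratio of -0.20 (-0.28 to -0.12). In BPA+DMBA against BPA they did so for Hist1h1d on the higher side and for Hist2h2be and Hist3h2a on the lower side. The calls named above for Hist1h2bc and Hist1h1c on the higher side were thus lost. For BPA, the median of the members was -0.26 with the trend removed, and intervals excluded equality for 3 and 5 members on the lower side, as without that step.

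The BPA ratio of Hist1h1c differed with and without DMBA. The BPA log2 ratio with DMBA minus that without DMBA was 0.28 (counting interval 0.14 to 0.42), so the lower value with BPA was smaller in the DMBA-exposed pair. It was the only one of 11 members whose interval excluded 0 on the higher side, where 16.1% of all genes were, and 0 members were on the lower side, where 17% of all genes were. The sum of H1 genes gave 0.28 (0.15 to 0.42) and the sum of all members 0.12 (0.02 to 0.23), while the sum without Hist1h1c gave -0.09 (-0.25 to 0.07). With 1 library a group this difference has no replicate check. The edgeR SEs and p-values take their spread from this same departure from additivity.

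Genes around the histones in the cell were measured in the same libraries. Of 40 S phase genes, 23 rose and 0 fell with DMBA in the edgeR test, with a median log2 change of 0.48, beside 6.67% of all genes passing higher. DESeq2 called 6 of the 40, and 15 passed after thinning to equal totals. Cell type markers also moved with DMBA: 7 of 9 basal markers rose and 0 fell (median log2 change 1.46), 4 of 6 endothelial markers rose and 0 fell (median 0.96), and 1 of 9 luminal markers rose and 3 fell (median -0.31). Of 8 fibroblast markers 1 rose and 0 fell (median -0.07), a median that joins opposite shifts. In DMBA against control 6 of 8 were lower (median log2 ratio -0.55), and in BPA+DMBA against BPA all 8 were higher (median 0.51). Lyz2 rose by 2.48 (SE 0.436, edgeR adjusted p = 0.0180). The part of these markers in the changes of the gene lists and in the histone levels was not tested. Rrm2, a ribonucleotide reductase subunit, rose by 0.89 (SE 0.0951, edgeR adjusted p = 0.00566), Ccna2, cyclin A, by 0.84 (SE 0.106, adjusted p = 0.00788) and Prim1, a primase subunit, by 0.85 (SE 0.146, adjusted p = 0.0170). Pcna, the sliding clamp, rose by 0.45 (SE 0.0905, adjusted p = 0.0257) and Mki67, a marker of cycling cells, by 0.43 (SE 0.0885, adjusted p = 0.0283). The median of the clustered histone members for DMBA, 0.24, lay below that of the S phase genes, and the difference between these lists was not tested. In the BPA pairs, where the histone sum was low, 30 of 40 S phase genes were higher in BPA against control and 17 of 40 in BPA+DMBA against DMBA, with median log2 ratios of 0.15 and -0.01.

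Factors that transcribe histone genes or cut their mRNAs held 1 gene of 23 that passed for DMBA, beside 14.4% of all genes in either direction and 6.67% higher. Pou2af1, a coactivator of POU factors at octamer sites known from B cells, rose by 2.90 (SE 0.337, edgeR adjusted p = 0.00644), with 136 counts in BPA+DMBA, 379 in DMBA, 37 in BPA and 34 in control. Its partner factor Pou2f1 had a log2 change of -0.64 (SE 0.170, edgeR adjusted p = 0.0545). Slbp, which binds the stem-loop shown above, had 0.18 (SE 0.108, adjusted p = 0.312). Npat, the cyclin E target that activates histone genes, had -0.05 (SE 0.0801, adjusted p = 0.729) and Casp8ap2, its partner in histone locus bodies, 0.03 (SE 0.0851, adjusted p = 0.854). Lsm10 and Lsm11 are subunits of the U7 particle that processes the 3′ end. Their changes were 0.07 (SE 0.129, adjusted p = 0.735) for Lsm10 and 0.13 (SE 0.144, adjusted p = 0.593) for Lsm11.

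Among 19 histone chaperones and related genes, 5 rose and 2 fell with DMBA, with a median log2 change of 0.15, beside 6.67% of all genes passing higher and 7.72% lower. Asf1b, a chaperone of H3 and H4, rose by 0.81 (SE 0.123, edgeR adjusted p = 0.0121) and Hat1, which acetylates new H4, by 0.61 (SE 0.128, adjusted p = 0.0292). Chaf1a, a subunit of the CAF-1 assembly factor, rose by 0.43 (SE 0.0917, adjusted p = 0.0299) and Nasp, an H3 and H4 chaperone, by 0.39 (SE 0.0773, adjusted p = 0.0250). The fifth was Anp32e, an H2A.Z chaperone, at 0.30, and those that fell were Ubn1 and Atrx, which act with H3.3, at -0.30 and -0.32; these were named after their values were seen. DESeq2 called 1 of the 19 higher and 0 lower, and scaling by total counts or by DESeq2 size factors also left 0 lower. Of 11 histone genes outside the clusters, 2 rose: Cenpa, the centromeric H3, by 0.86 (SE 0.125, edgeR adjusted p = 0.0111) and H2afy2, a macroH2A, by 0.95 (SE 0.234, adjusted p = 0.0432). With DESeq2, with either other scaling, after thinning or without the length trend, Cenpa passed and H2afy2 did not. H3f3b had 0.11 (SE 0.0798, adjusted p = 0.412) and H2afz 0.25 (SE 0.209, adjusted p = 0.465). For BPA, 0 genes of these 4 lists passed in edgeR, and 0 had an unadjusted p under 0.05.

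**Figure D5:**
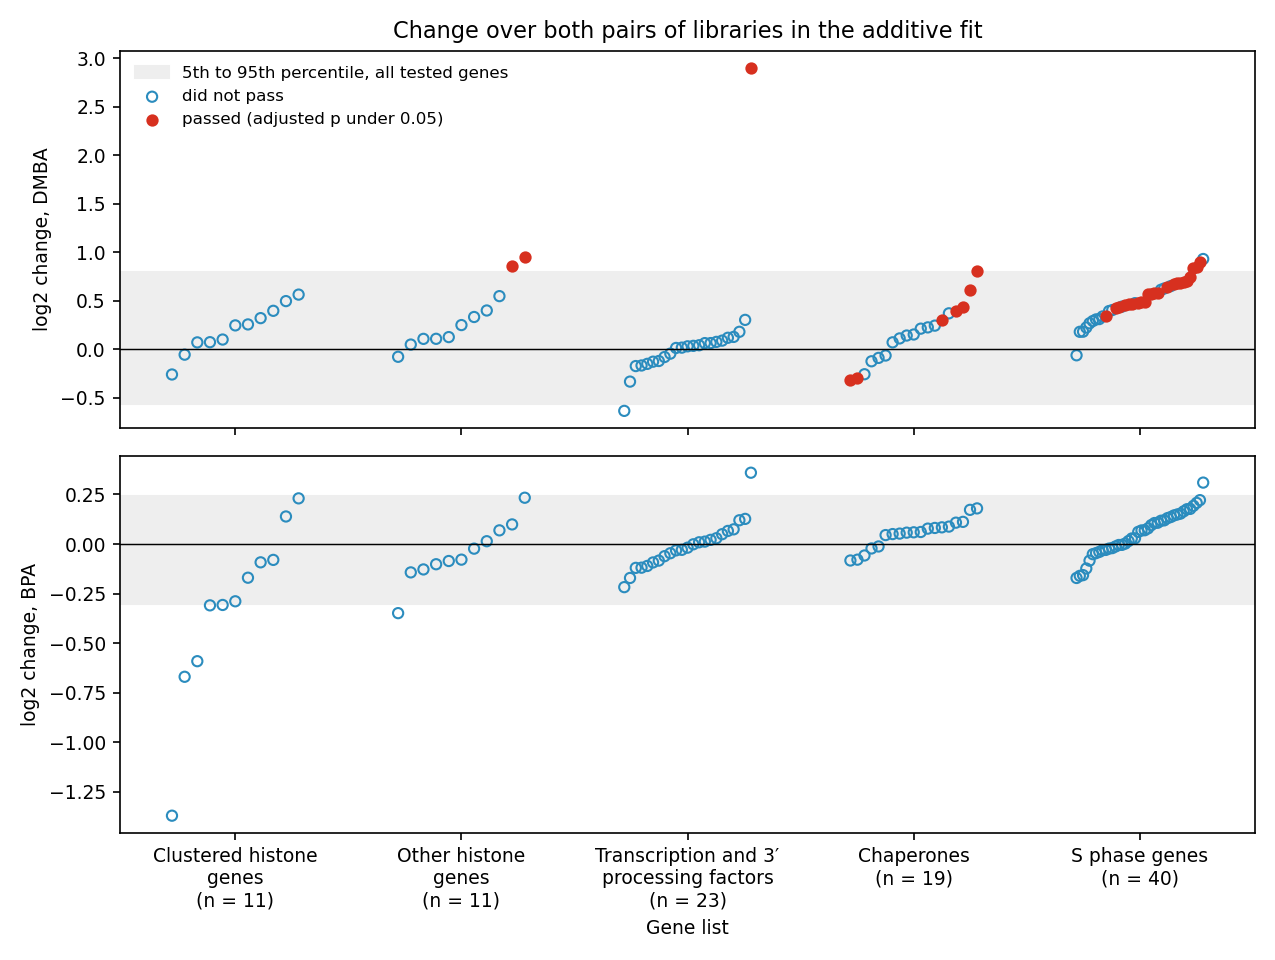
Log2 change with DMBA (top) and BPA (bottom) in the additive edgeR fit, 1 point a gene, for the 11 clustered histone members and the 4 related lists; filled points passed at an adjusted p under 0.05, and the grey band spans the middle of all tested genes. For DMBA 23 of 40 S phase genes and 0 of 11 clustered members passed, and for BPA 0 genes of any list did.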

How the data were processed

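Per the labels' protocols, total RNA (miRNeasy) went into Illumina TruSeq RNA libraries. The authors deposited raw counts per gene symbol, used unchanged. Tools named in the submitters' processing notes are CASAVA 1.8.2, HTSeq and DESeq, with the build mm9. The sources used here do not give their roles, the aligner, the annotation or whether strand was used, so reads of overlapping genes cannot be told apart by strand. Entries for reads without a gene stayed out of library sizes: reads outside genes were 11.3% of deposited counts in BPA+DMBA, 11.9% in DMBA, 13.0% in BPA and 13.5% in control, and reads on overlapping genes 0.449%, 0.443%, 0.441% and 0.435%. No pair of libraries held like counts.

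The 13638 genes with at least 20 counts in any library were fitted in edgeR 4.0.16 (R 4.3.3; TMM scaling, quasi-likelihood test, additive model, Benjamini-Hochberg adjustment over all these genes, threshold 0.05). Each SE is the absolute log2 change divided by the square root of that test's F statistic. It was thus derived from the statistic behind the p-value and is not a separate measure of precision. Pair ratios came with exact Clopper-Pearson intervals, and the departure interval added 0.5 to each count. A count of 0 allows up to 3 counts. The steps were tested on simulated data. Alternatives were other scalings, filters, thinning, removal of the length trend, DESeq2 1.42.0 and libraries left out. Every member with at least 20 counts in any library was named. Of each other list the 4 largest DMBA changes were taken, plus Slbp, Npat, Casp8ap2, Lsm10, Lsm11, Pcna, Mki67, H2afz and H3f3b. Gins1 (log2 change 0.93, edgeR adjusted p = 0.0779), H1fx, H2afx, Zcchc11 and Zfp473, also given by this rule, did not pass and are not discussed above. Zfp473 was at least 2-fold higher in DMBA against control (2.08) and in BPA against control (2.25), on 18 to 43 counts. It lay at 0.678 in BPA+DMBA against BPA and 0.735 in BPA+DMBA against DMBA. Members and lists were chosen with earlier results of these data known. Transcripts are GENCODE M21 and promoters RefSeq GRCm38.p6, another build than the counts.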

Additional observations from a re-analysis of the deposited data

Results flagged for a closer look

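For Hist1h1c, the BPA log2 ratio with DMBA minus that without DMBA was 0.28 (counting interval 0.14 to 0.42). What stands out is that its counts differ between the pairs by more than counting error, with 0.891 in BPA+DMBA against DMBA and 0.732 in BPA against control. The summed H1 genes gave 0.28, and Hist1h1c holds nearly all of that sum. The sum over all 68 members gave 0.12, and without Hist1h1c it was -0.09 (-0.25 to 0.07). An interval of this kind excluded 0 on the higher side for 16.1% of all genes, and none of these differences was tested over replicate libraries.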

How the results depend on the processing

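No member passed for DMBA or BPA under any of the scalings, filters, thinning, length correction, DESeq2 or single-term fits run, with adjusted p-values of 0.103 to 0.989 for DMBA and 0.999 to 1.00 for BPA. Hist1h1e, Hist1h2bg, Hist2h2bb and Hist2h3c2-ps had no adjusted p for DMBA in DESeq2 and fell under the minimum after thinning. They could therefore not pass in those settings. Of 256 member changes under alternatives, 241 kept their sign. Without the length trend the median DMBA change of the members was 0.07, against 0.24. For DMBA, Hist1h1c turned to -0.068, Hist2h2bb to -0.18 and Hist2h3c1 to -0.039 without the length trend, and Hist3h2a to 0.028 with total counts. In single-term fits leaving out each library in turn, where a single library left in an arm is taken to vary as the rest do, the DMBA change ran from -0.15 to 0.30 for Hist1h1c (-0.039 without DMBA), -0.056 to 0.82 for Hist1h1e, -0.22 to 0.67 for Hist1h4i, -0.97 to 0.95 for Hist2h2bb (-0.26 without BPA), -0.022 to 0.15 for Hist2h3c1 and -0.18 to 0.054 for Hist3h2a. The BPA change ran from -0.38 to 0.20 for Hist1h1d, -0.71 to 0.27 for Hist1h2bg and -0.014 to 0.44 for Hist2h2be, and kept its sign for Hist1h1c (-0.43 to -0.20), Hist1h2bc (-0.45 to -0.14) and Hist2h2bb (-1.46 to -1.29). The count of members at least 2-fold apart was 2 in BPA against control without a filter, since Hist2h2ab had 4 counts in BPA and 0 in control, and 0 after thinning in that pair and in BPA+DMBA against DMBA. The departure count was 2 with DESeq2 size factors or total counts, 1 higher and 1 lower, against 1 higher and 0 lower with TMM scaling. With TMM scaling the departure of Hist3h2a was -0.25 (-0.51 to 0.01). The log2 ratio of the sum in DMBA against control was 0.02, but 0.13 with total counts and 0.14 without Hist1h1c; without Hist1h1c it was 0.055 in BPA+DMBA against BPA and -0.14 in BPA against control. The cause of these shifts was not tested. No paired analysis was possible because each group has 1 library and the labels number no replicates. The 57 members under 20 counts, with at most 17 in any library, were read mainly as sums.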
